A study of Mus musculus with 36 samples.

Results

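Chemokines and their receptors were taken from the expression table of mouse livers as every gene whose symbol is Ccl, Cxcl, Cx3cl, Xcl, Ccr, Cxcr, Cx3cr, Xcr or Ackr followed directly by a number. The rule gave 67 of the 49315 genes listed, with 62 distinct symbols, and used no measured value. By their symbols, 45 are ligands, 18 are receptors and 4 are atypical receptors, and the annotation lists all as protein coding except Cxcl11, a polymorphic pseudogene. PolyA RNA was sequenced from whole livers of male mice 11 to 12 weeks old, 4 in each of 9 groups. The mice carried LXRalpha, a nuclear receptor that senses oxidised cholesterol, with tryptophan at residue 441 on both alleles (W/W), with phenylalanine there on 1 allele (W/F), or with phenylalanine on both alleles (F/F). The substitution was made in the animal with CRISPR and not in a chosen cell type, and gene-level values cannot show a change of residue. Chow mice formed a cohort of their own, so a difference between diet and chow cannot be told apart from a difference between cohorts. All other mice ate a diet that promotes metabolic dysfunction-associated steatohepatitis (MASH; Teklad TD.96121) for 4 weeks. For the last 2 weeks they received by gavage each day either vehicle or the synthetic LXR agonist T0901317 at 10 mg/kg.

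Chemokines are small secreted proteins that steer white blood cells, and their families are named after the spacing of the first cysteines. The typical receptors couple to inhibitory G proteins and drive migration along a gradient, while the atypical receptors bind chemokines without that signal and remove them. In liver injury CCL2 recruits CCR2-bearing monocytes, the CXC ligands of CXCR2 recruit neutrophils, the interferon-induced ligands CXCL9, CXCL10 and CXCL11 act on CXCR3 of activated T cells, and CX3CL1 and CXCL16 are membrane-anchored ligands of CX3CR1 and CXCR6. CXCL12, the ligand of CXCR4 and ACKR3, is made constitutively by stromal and sinusoidal cells.

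Values are TPM (transcripts per 1000000), which take the length of the gene and the size of the library into account, so levels can be set side by side between genes. Depth recovered from the spacing of low values was 18.0 to 35.7 M reads per library (M, 1000000; median 23.8 M), and the number of reads limits the precision of members near or under 1 TPM. The hepatocyte markers Alb, Apoa1, Ttr, Cyp2e1, Serpinc1 and Hnf4a together held between 33332 and 104284 TPM in each library. Some libraries stood apart from their group. W/F T0901317 replicate 2 lay at 1.00 on the first principal component, where the other 3 lay between 44.9 and 54.4, and it had much higher Cxcl9 (114 TPM) and Ccl2 (24.9 TPM) than they did. W/F chow replicate 4 (187 TPM) and W/W chow replicate 3 (99.5 TPM) were high in Cxcl1. Counts of calls, and folds where these libraries move them most, are also given without them.

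Of the 67 genes, 40 reached at least 1 TPM in at least 4 libraries and were tested: 26 ligands, 11 receptors and 3 atypical receptors. Another 16 were above 0 in some library but were not tested, among them Ccl11, Ccl17, Ccl19, Ccr3, Ccr4, Ccr6, Ccr9 and Xcr1, and their highest group mean was that of Ccl19 in F/F vehicle mice, 1.35 ± 0.941 TPM (SD, n = 4). The remaining 11, which include the Ccl21 copies, Ccl27b and Cxcl15, are listed at 0 in every library. Genes with copies elsewhere in the genome, such as Ccl21b, may share sequence, and shared reads may not be assigned to any of them. For such genes a value of 0 does not show that they were not expressed. A gene was called changed at a Benjamini-Hochberg adjusted p under 0.05 from limma on log2(TPM + 1), adjusted over all 16638 genes tested. Fold changes below are differences on that scale with their standard error, and so understate the change of genes near or under 1 TPM. Since the median gene moved between groups, by 0.70 on the log2 scale between F/F and W/W vehicle mice, counts of calls are followed by the count after rescaling each library so that the median gene does not move. Counts in the family are also followed by the share of all 16638 genes called in that comparison and scaling, because a share of chemokine genes close to it is no result about them.

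In W/W livers Cxcl12 and Ccl9, a CC ligand of CCR1, held the largest shares of the summed ligand TPM. On chow Cxcl12 held 42.9%, Ccl9 24.1% and the neutrophil attractant Cxcl1 13.4%, but Cxcl1 held 34.6% in replicate 3 and 6.32% on average in the other 3 mice. On vehicle the shares were 41.5%, 17.0% and 9.67%. With T0901317 Ccl9 came first with 35.5%, Cxcl12 held 27.5%, Ccl6 held 6.96% and Cxcl1 held 3.04%. In W/W mice the 45 ligands summed to 233 ± 40.2 TPM on chow, to 161 ± 22.8 TPM on vehicle and to 170.1 ± 28.2 TPM under T0901317 (SD, n = 4 each). The 18 receptors together came to only 5.24 ± 1.19, 7.92 ± 3.65 and 9.36 ± 3.66 TPM in the same groups. In vehicle mice the ligand sum was 634 ± 16.1 TPM in W/F mice and 622 ± 44.7 TPM in F/F mice, and the receptor sum was 79.4 ± 10.4 TPM in W/F mice and 110.4 ± 11.1 TPM in F/F mice. No W/F or F/F vehicle mouse overlapped a W/W vehicle mouse in either sum. Cxcl12 then held 13.2% of the ligand TPM in W/F and 14.3% in F/F, and Ccl2 alone held 9.15% and 9.78%.

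**Figure D1:**
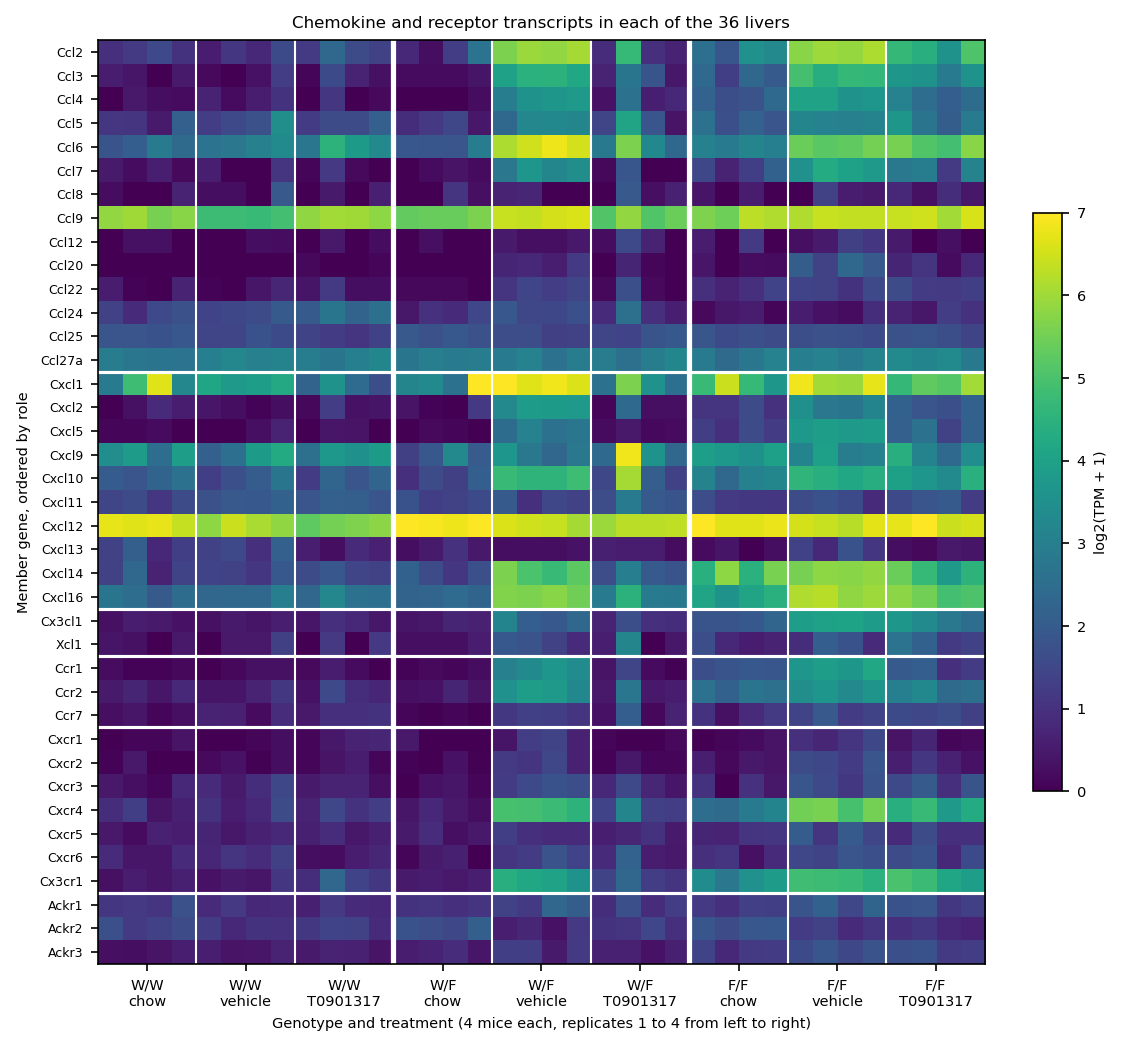
Level of 39 of the 40 tested chemokine and receptor genes (rows, grouped by role) in each of the 36 livers (columns, grouped by genotype and treatment), as log2(TPM + 1) with the colour scale ending at 7. The columns of W/F vehicle, F/F vehicle and F/F T0901317 mice are brighter than those of W/W mice for many ligands and receptors. Many receptors stay near the low end of the scale, while Cxcl12 and Ccl9 are bright in all columns.

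On the MASH diet with vehicle, most of the family was higher in F/F than in W/W livers as deposited. The same was so of most of all genes tested. Of 40 tested genes, 31 were higher and 2 lower in F/F than in W/W, beside 76.5% of all genes called (69.3% higher and 7.13% lower). The median fold change was 1.27 over the 40 genes and 0.70 over all genes, and after rescaling 24 were higher and 6 lower, beside 31.0% and 28.1% of all genes, with medians of 0.72 for the 40 genes and 0.03 for all genes. By role, 7 of 7 CXC, CX3C and XC receptors were higher, or 5 of 7 after rescaling. As deposited, the 10 of 14 CC ligands, 7 of 10 CXC ligands and 2 of 3 atypical receptors that were higher were shares close to that of all genes, and after rescaling they were 8, 5 and 2. W/F mice also had 27 higher and 1 lower than W/W, beside 68.5% of all genes (61.6% higher and 6.83% lower), and 22 higher and 6 lower after rescaling, beside 27.6% and 25.5%. The comparisons of F/F and of W/F with W/W share the W/W vehicle mice.

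The CC ligands that attract monocytes were among those that differed most. Ccl2 (chr11:82035571-82037453, GRCm38), the main ligand of CCR2, was at 0.453, 1.16, 0.708 and 1.99 TPM in the 4 W/W vehicle mice. It was at 48.1, 60.6, 57.0 and 66.0 TPM in W/F vehicle mice and at 53.2, 61.6, 58.1 and 70.1 TPM in F/F vehicle mice. Every mutant mouse was thus far above every W/W mouse, and the 2 mutant groups overlapped. The fold change was 4.94 ± 0.56 in F/F (adjusted p 3.50e-09) and 4.87 ± 0.56 in W/F (adjusted p 1.01e-08). Ccl7, a related CCR2 ligand that neighbours Ccl2, was at 0 to 1.10 TPM in W/W vehicle mice and at 10.6, 18.7, 15.1 and 12.9 TPM in F/F vehicle mice, a rise of 3.49 ± 0.38 (adjusted p 1.76e-09). Of the other genes in that cluster (chr11:82035571-82305690), Ccl12 (0.68 ± 0.26 in F/F, adjusted p 0.0175, but 0.46 and 0.108 after rescaling) and Ccl8 (not called) had means under 1 TPM in every group, and Ccl1 and Ccl11 were not tested.

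Ccr2, the receptor of these ligands on inflammatory monocytes, was at 0.321, 0.315, 0.581 and 1.18 TPM in W/W vehicle mice. It was at 10.6, 14.3, 12.7 and 8.67 TPM in W/F and at 9.92, 11.8, 8.86 and 11.3 TPM in F/F vehicle mice. The rise was 2.98 ± 0.32 in W/F (adjusted p 2.59e-09) and 2.87 ± 0.32 in F/F (adjusted p 2.50e-09), with no overlap with W/W.

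The second cluster of CC ligands on chromosome 11 (chr11:83525778-83664683) holds Ccl3, Ccl4, Ccl5, Ccl6 and Ccl9. Ccl3, a macrophage-derived ligand of CCR1, was at 0.135, 0, 0.263 and 1.41 TPM in W/W vehicle mice, at 15, 21, 21.6 and 17.4 TPM in W/F mice and at 29.4, 19.5, 24.4 and 24.0 TPM in F/F mice. It rose by 3.84 ± 0.35 in W/F mice (adjusted p 1.30e-10) and by 4.20 ± 0.35 in F/F mice (adjusted p 7.23e-12). Its neighbour Ccl4, which also attracts monocytes and T cells, rose from 0.570 ± 0.370 TPM to 10.6 ± 2.60 TPM in W/F mice and 13.4 ± 2.36 TPM in F/F mice (SD, n = 4 each). Ccl6 differed in order from these genes, since it was highest in W/F: 69.3, 89.9, 113 and 90.4 TPM there, 41.9, 35.9, 38.2 and 45.2 TPM in F/F and 5.35, 5.86, 7.35 and 8.97 TPM in W/W. No W/F mouse overlapped an F/F mouse, and the difference between F/F and W/F was -1.13 ± 0.42 with an adjusted p of 0.0518, or -1.33 with an adjusted p of 0.0308 after rescaling. Ccl9 rose from 27.0 ± 1.39 TPM in W/W to 88.5 ± 7.38 TPM in W/F mice and 79.2 ± 6.14 TPM in F/F mice (SD, n = 4 each). Ccl5, which T cells make, had the least stable difference of the cluster, at 1.12 ± 0.50 (adjusted p 0.0432) in F/F, and leaving out any of 7 libraries ended the call (1.10 without F/F vehicle replicate 1, adjusted p 0.0727).

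Ccr1, the receptor for CCL3, CCL6 and CCL9, is encoded on chromosome 9, as are Ccr2 and Cxcr6. It was at 0, 0.107, 0.249 and 0.243 TPM in W/W vehicle mice and at 11.8, 14.3, 12.1 and 17.2 TPM in F/F vehicle mice, a rise of 3.68 ± 0.23 (adjusted p 1.26e-14). W/F vehicle mice had 7.33, 9.09, 11.9 and 9.39 TPM and were again clear of every W/W mouse. Ccr7, the homing receptor of mature dendritic cells and naive T cells, rose from 0.546 ± 0.289 to 1.92 ± 0.641 TPM in F/F (0.91 ± 0.25, adjusted p 0.00167).

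Several CC ligands of lower level had other orders. Ccl20, the ligand of CCR6, is listed at 0 in all 8 W/W mice on chow or vehicle, and was at 0.645, 0.745, 0.491 and 1.30 TPM in W/F and at 3.20, 1.54, 4.09 and 2.91 TPM in F/F vehicle mice. All F/F vehicle mice were above all W/F vehicle mice (1.11 ± 0.18, adjusted p 6.31e-05). Ccl24, an eosinophil attractant that acts on CCR3, was the clearest exception among the ligands. It was at 1.67, 1.88, 2.02 and 2.96 TPM in W/W vehicle mice, at 2.71, 1.82, 1.89 and 2.30 TPM in W/F mice and at 0.439, 0.267, 0.176 and 0.879 TPM in F/F mice, so that all F/F mice lay below all others. It was lower in F/F than in W/W by 1.13 on the log2 scale (-1.13 ± 0.29, adjusted p 7.51e-04) and lower than in W/F (-1.16 ± 0.29, adjusted p 0.00467). Ccl25, a gut and thymus ligand of CCR9, and Ccl27a, an epithelial ligand of CCR10, were not called as deposited (adjusted p 0.399 and 0.594) and were lower after rescaling (-0.46 and -0.84). Ccl22, a ligand of CCR4, was higher in F/F (1.03 ± 0.26, adjusted p 7.59e-04). For Ccl27a, 45.0% of the sequence in stretches of 50 bases also occurs in other genes, so its level is uncertain.

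**Figure D2:**
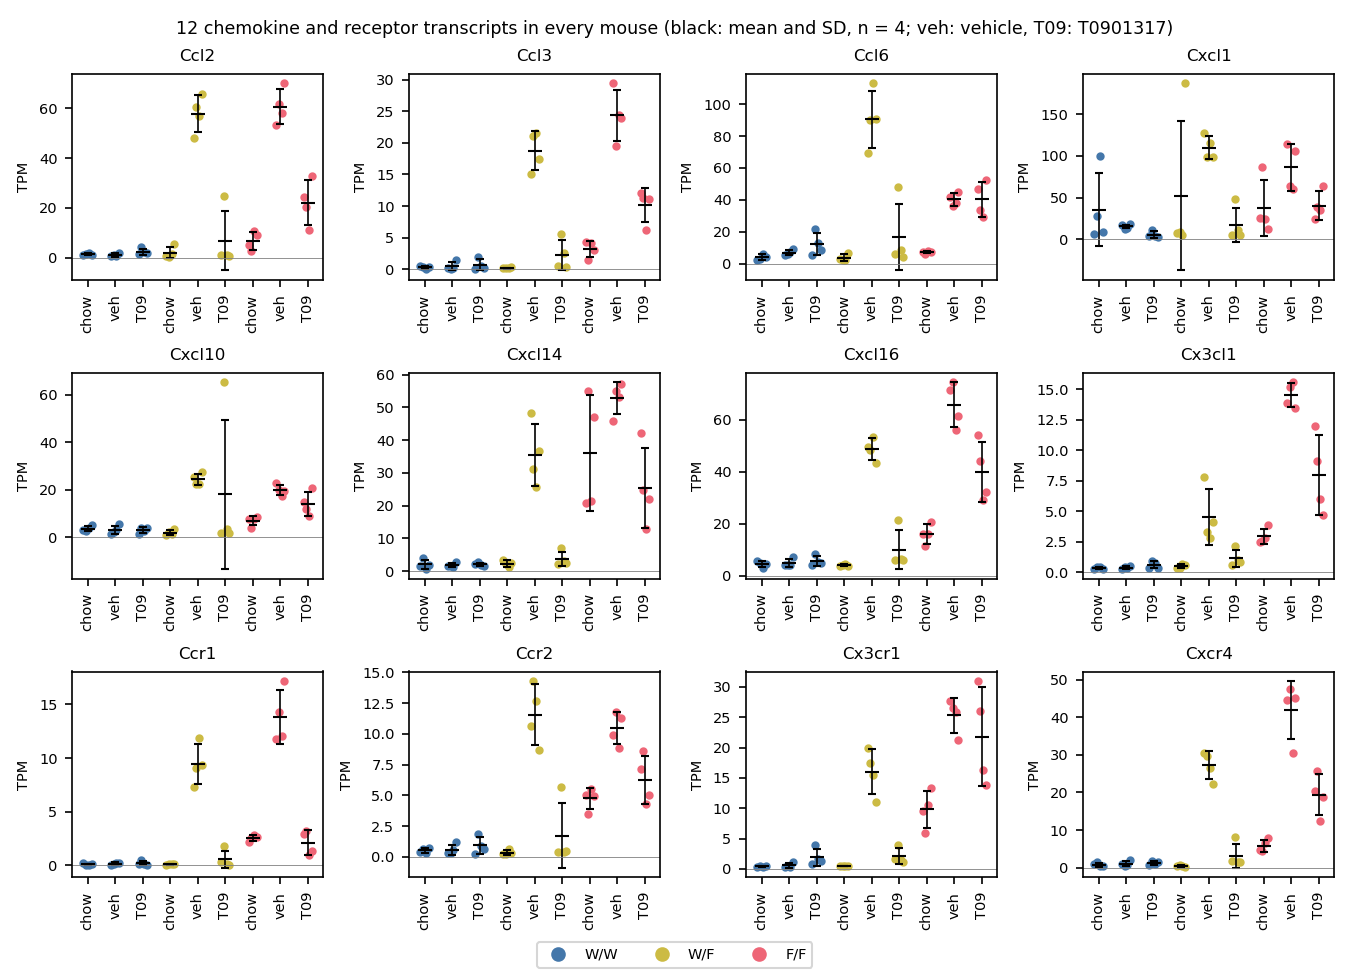
TPM of 12 ligand and receptor genes in every mouse (points) by group, with the mean and SD of 4 mice (bars), W/W, W/F and F/F from left to right and chow, vehicle and T0901317 within each. Most panels show W/F high on vehicle only, and F/F high on vehicle, intermediate with T0901317 and, for Cxcl14 and Cx3cr1, already raised on chow.

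Among the CXC ligands, those of the neutrophil receptor CXCR2 lie in a cluster on chromosome 5 (chr5:90759360-90905938). Cxcl1 was at 16.7, 12.8, 14.0 and 17.7 TPM in W/W vehicle mice, at 127, 99.2, 115 and 98.4 TPM in W/F mice and at 114, 64.4, 60.2 and 106 TPM in F/F mice. The rise was 2.77 ± 0.79 in W/F (adjusted p 0.00280) and 2.37 ± 0.79 in F/F (adjusted p 0.00805). Cxcl2 rose from 0.196 ± 0.123 TPM to 11.9 ± 2.14 TPM in W/F mice and 7.43 ± 2.26 TPM in F/F mice (SD, n = 4 each). Cxcl5, an epithelial ligand of the same receptor, had a different order: 0, 0, 0.216 and 0.580 TPM in W/W, 4.55, 7.57, 5.06 and 5.73 TPM in W/F mice and 12.3, 14.2, 12.9 and 13.6 TPM in F/F mice. All F/F mice were above all W/F mice (1.10 ± 0.19, adjusted p 1.12e-04), and all W/F mice above all W/W mice. The receptor Cxcr2 went from 0.157 ± 0.0983 TPM in W/W to 1.19 ± 0.520 TPM in W/F mice and 1.98 ± 0.493 TPM in F/F mice (SD, n = 4 each), a rise of 1.35 ± 0.17 in F/F (adjusted p 2.47e-08). Cxcr1, beside it at chr1:74153989-74194631, had group means of at most 1.14 TPM.

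The interferon-induced ligands at chr5:92321347-92365485 did not move together. Cxcl10 was at 1.47, 2.29, 3.13 and 5.58 TPM in W/W vehicle mice, at 25.3, 22.5, 22.6 and 27.4 TPM in W/F mice and at 22.8, 19.8, 17.4 and 19.6 TPM in F/F mice, a rise of 2.72 ± 0.56 in W/F mice (adjusted p 8.57e-05) and of 2.43 ± 0.56 in F/F mice (adjusted p 2.44e-04). Its neighbour Cxcl9 was at 3.39, 4.83, 13.0 and 18.6 TPM in W/W, 11.9, 6.0, 3.97 and 6.03 TPM in W/F mice and 7.99, 14.4, 6.77 and 7.41 TPM in F/F mice. The groups overlapped fully, and the F/F difference was 0.09 with a 95% confidence interval of -1.21 to 1.40 (adjusted p 0.904). Cxcl11 was lower in F/F (-0.50 ± 0.23, adjusted p 0.0452), a call that ended without F/F vehicle replicate 4 (-0.30, adjusted p 0.237) and without W/W vehicle replicate 2 (-0.50, adjusted p 0.0698), 3 (-0.51, adjusted p 0.0654) or 4, and 41.7% of its exon sequence overlaps Gm2673 on the other strand. Their shared receptor Cxcr3 went from 0.997 ± 0.620 TPM in W/W to 1.96 ± 0.474 TPM in W/F mice and 2.06 ± 0.667 TPM in F/F mice (SD, n = 4 each), and its rise in F/F (0.64 ± 0.25, adjusted p 0.0231) was not called after rescaling (0.14, adjusted p 0.640) or without W/W vehicle replicate 2 (0.49, adjusted p 0.0999), F/F vehicle replicate 1 or F/F vehicle replicate 4.

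The promoters of some of these genes hold a motif of NF-kappaB, a factor known for regulating many chemokine genes, and 5 are shown so that the letters matched can be seen in genes that were higher in F/F on vehicle. No common cause was tested, and genes of the same clusters that were not called or had another order are given above. Promoters of 300 bases (250 before and 50 after the start, RefSeq, GRCm38.p6) were found for 29 of the 40 tested genes, with 32 promoters in all. Among the genes without one were Ccl2, Ccl4, Ccl7, Cxcl5 and Cxcl16, so the shares below leave out several genes that differed strongly. The NF-kappaB consensus, searched on both strands, was in 8 of the 32 (25.0%) and in 8.46% of all 32851 promoters. AP-1 (TGANTCA) was in 4 (12.5%, against 7.81%) and the interferon-stimulated response element (TTTC, any 2 bases, TTTC) in 2 (6.25%, against 3.44%). The LXR element DR4 (AGGTCA, any 4 bases, AGGTCA) was in 0 (against 0.0152%). This exact form of DR4 was in only 5 of all 32851 promoters, so 0 among 32 says nothing about LXR sites in these genes. The holders of the NF-kappaB match were Ackr2, Ccl20, Ccl27a, Ccl9, Ccr1, Cxcl1, Cxcl2 and Cxcl10, of which Ackr2 and Ccl27a were not called on vehicle in F/F. These matches are letters in a window, and binding was not measured. Capitals below mark the NF-kappaB match, counted from the start site, at -71 to -61 in Cxcl1 and -97 to -87 in Cxcl2, each as overlapping matches, at -159 to -150 and -104 to -94 in Cxcl10, at -74 to -65 in Ccr1 and at -80 to -71 in Ccl20.
Cxcl1 promoter, chr5:90890995-90891294, plus strand: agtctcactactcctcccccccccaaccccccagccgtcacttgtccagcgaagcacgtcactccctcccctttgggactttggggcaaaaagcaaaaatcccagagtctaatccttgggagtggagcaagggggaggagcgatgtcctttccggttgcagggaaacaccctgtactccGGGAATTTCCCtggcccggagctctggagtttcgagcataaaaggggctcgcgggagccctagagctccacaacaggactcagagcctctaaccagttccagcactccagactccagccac
Cxcl2 promoter, chr5:90903649-90903948, plus strand: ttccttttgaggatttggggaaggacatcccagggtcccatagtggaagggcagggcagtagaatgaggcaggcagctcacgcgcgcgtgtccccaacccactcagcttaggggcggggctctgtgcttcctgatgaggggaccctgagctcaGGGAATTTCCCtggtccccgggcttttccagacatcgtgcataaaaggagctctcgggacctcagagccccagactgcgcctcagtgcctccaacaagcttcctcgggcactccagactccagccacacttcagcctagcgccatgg
Cxcl10 promoter, chr5:92348840-92349139, minus strand: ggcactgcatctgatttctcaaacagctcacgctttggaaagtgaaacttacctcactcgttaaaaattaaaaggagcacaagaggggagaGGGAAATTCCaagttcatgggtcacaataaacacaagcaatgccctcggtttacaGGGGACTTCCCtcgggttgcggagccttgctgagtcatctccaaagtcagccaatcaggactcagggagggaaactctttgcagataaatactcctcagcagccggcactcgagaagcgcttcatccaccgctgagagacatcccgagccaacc
Ccr1 promoter, chr9:123968643-123968942, minus strand: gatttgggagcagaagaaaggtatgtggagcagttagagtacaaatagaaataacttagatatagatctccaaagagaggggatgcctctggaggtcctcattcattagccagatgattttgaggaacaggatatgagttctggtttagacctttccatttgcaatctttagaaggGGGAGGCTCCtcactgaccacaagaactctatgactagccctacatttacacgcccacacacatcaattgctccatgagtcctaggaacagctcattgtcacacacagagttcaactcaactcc
Ccl20 promoter, chr1:83116516-83116815, plus strand: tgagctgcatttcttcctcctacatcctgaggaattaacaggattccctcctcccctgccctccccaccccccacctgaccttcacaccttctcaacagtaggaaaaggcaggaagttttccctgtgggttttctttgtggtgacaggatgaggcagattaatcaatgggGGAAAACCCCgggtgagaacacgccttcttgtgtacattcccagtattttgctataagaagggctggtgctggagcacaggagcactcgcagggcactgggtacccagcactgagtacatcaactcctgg

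Cxcl14 (chr13:56288643-56296551), an epithelial chemokine whose receptor is not settled, was among the genes that differed most between the genotypes. It was at 1.64, 1.55, 1.16 and 2.80 TPM in W/W vehicle mice, at 48.1, 31.2, 25.8 and 36.7 TPM in W/F mice and at 45.9, 55.1, 53.1 and 57.1 TPM in F/F mice. It rose by 3.70 ± 0.34 in W/F mice (adjusted p 1.33e-10) and by 4.30 ± 0.34 in F/F mice (adjusted p 2.17e-12). Cxcl16 (chr11:70453983-70459984), which also acts as a scavenger receptor on macrophages, was at 4.00, 4.02, 4.20 and 6.99 TPM in W/W, at 49.7, 48.5, 53.3 and 43.5 TPM in W/F mice and at 71.3, 74.5, 55.9 and 61.4 TPM in F/F mice. The 3 genotypes did not overlap as deposited, and the rise in F/F over W/W was 3.55 ± 0.26 (adjusted p 5.92e-13). The difference between F/F and W/F was not called (0.42 ± 0.26, adjusted p 0.266, and 0.22 with an adjusted p of 0.627 after rescaling). Its receptor Cxcr6, found on T and NKT cells, differed less: 0.695, 1.10, 0.835 and 1.53 TPM in W/W and 1.83, 1.73, 2.60 and 2.25 TPM in F/F (0.61 ± 0.27, adjusted p 0.0400), and the call ended without any of 5 libraries (0.53 without W/W vehicle replicate 1, adjusted p 0.105).

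In the CXCL12 axis the receptor rose far more than the ligand moved. Cxcr4 (chr1:128588199-128592293) was at 1.03, 0.448, 0.724 and 2.06 TPM in W/W vehicle mice, at 30.4, 29.7, 26.5 and 22.2 TPM in W/F mice and at 44.6, 47.6, 30.4 and 45.1 TPM in F/F mice. The rise was 3.82 ± 0.30 in W/F (adjusted p 8.19e-12) and 4.41 ± 0.30 in F/F (adjusted p 1.19e-13). Cxcl12 (chr6:117168535-117181367) was at 54.6, 85.9, 67.5 and 56.5 TPM in W/W, 98.0, 88.4, 83.4 and 65.1 TPM in W/F mice and 93.1, 83.7, 75.2 and 104 TPM in F/F mice, with overlap. Its direction depended on the scaling: in F/F it was higher as deposited (0.44, adjusted p 0.00938) and lower after rescaling (-0.42, adjusted p 0.00638), and in W/F likewise (0.34, adjusted p 0.0420, and -0.31, adjusted p 0.0439). The scavenging receptor Ackr3 rose from 0.428 ± 0.135 TPM in W/W to 1.15 ± 0.494 TPM in W/F mice and 2.25 ± 0.390 TPM in F/F mice (SD, n = 4 each). It was higher in F/F than in W/F as deposited (0.62 ± 0.16, adjusted p 0.00670) and not called after rescaling (0.43, adjusted p 0.0590). Ackr1, a receptor of venules and red cells, rose by 1.03 ± 0.22 in F/F (adjusted p 1.07e-04), but 25.7% of its exon sequence overlaps Cadm3. Ackr2, a scavenger of inflammatory CC ligands, was not called (0.13 ± 0.17, adjusted p 0.509).

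The fractalkine axis rose on both sides. Cx3cl1 (chr8:94772009-94782427) was at 0.236, 0.412, 0.307 and 0.50 TPM in W/W vehicle mice, at 7.85, 3.29, 2.81 and 4.08 TPM in W/F mice and at 13.9, 15.2, 15.6 and 13.5 TPM in F/F mice. It rose by 3.51 ± 0.22 in F/F over W/W (adjusted p 2.22e-14) and was the gene of the family that differed most between F/F and W/F (1.58 ± 0.22, adjusted p 1.00e-05). Its receptor Cx3cr1, a marker of patrolling monocytes and of some tissue macrophages, was at 0.275, 0.427, 0.335 and 1.16 TPM in W/W, at 20, 17.5, 15.5 and 11.1 TPM in W/F mice and at 27.7, 26.6, 25.8 and 21.2 TPM in F/F mice. The rise was 3.46 ± 0.27 in W/F (adjusted p 7.22e-12) and 4.11 ± 0.27 in F/F (adjusted p 6.09e-14), and no group overlapped another as deposited. The difference of Cx3cr1 between F/F and W/F was not called (0.65 ± 0.27, adjusted p 0.0869, and 0.45 with an adjusted p of 0.287 after rescaling). Xcl1, which attracts cross-presenting dendritic cells through XCR1, was not called in F/F on vehicle (0.84 ± 0.46, adjusted p 0.102).

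Cxcl13, the B cell attractant, was lower in W/F vehicle mice than in W/W mice (-1.23 ± 0.23, adjusted p 2.09e-05), at 0.199, 0.204, 0.202 and 0.268 TPM against 1.61, 1.94, 0.963 and 3.42 TPM. In F/F vehicle mice it was at 1.58, 0.701, 2.38 and 1.17 TPM, above all W/F mice (0.97 ± 0.23, adjusted p 0.0030) and within the range of W/W or below it (-0.26 ± 0.23, adjusted p 0.297). Its receptor Cxcr5 was highest in F/F, at 3.07, 1.11, 2.98 and 1.74 TPM, against 0.650, 0.365, 0.574 and 0.737 TPM in W/W (0.98 ± 0.19, adjusted p 2.39e-05).

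**Figure D3:**
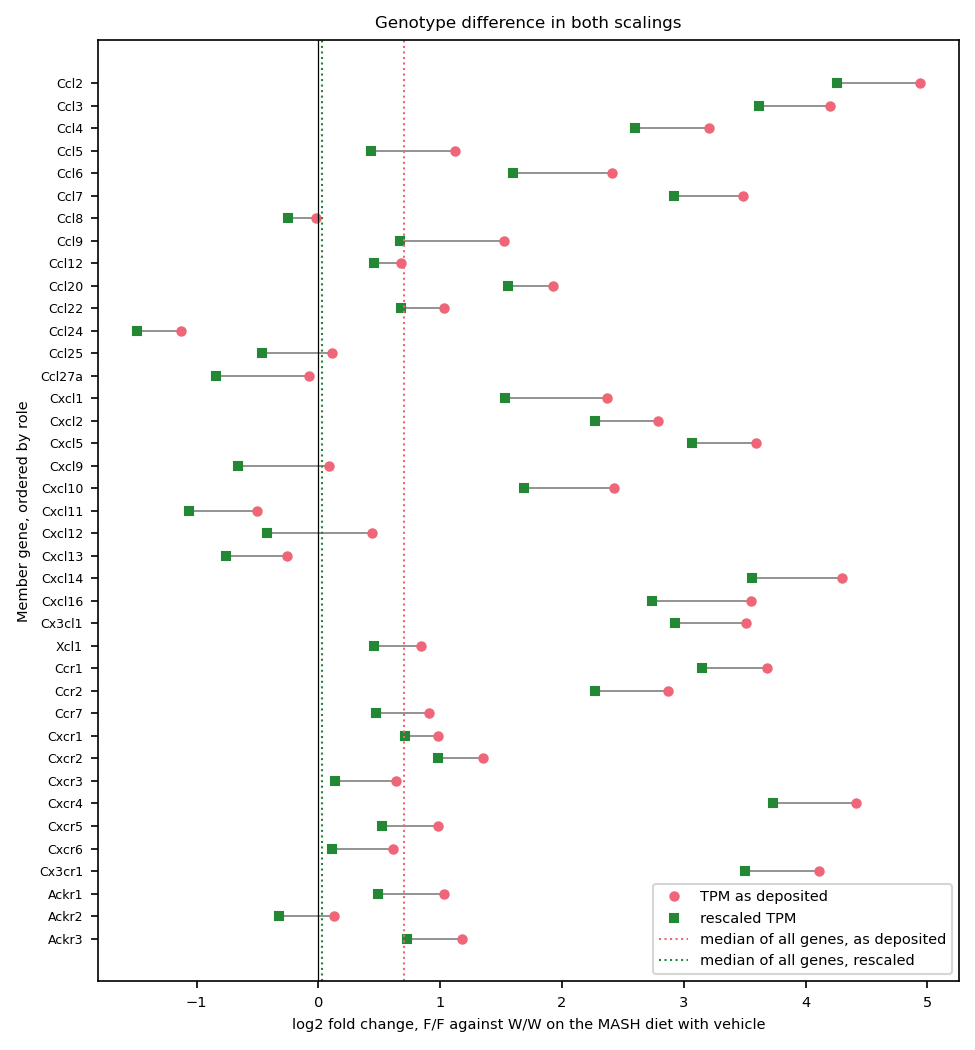
Log2 fold change of 39 of the tested genes between F/F and W/W vehicle mice, as deposited and after rescaling so that the median gene does not move, with dotted lines at the median of all genes in each scaling (0.70 and 0.03). Rescaling lowers every gene shown, by unequal amounts (from -0.22 for Ccl12 to -0.86 for Cxcl12), and Cxcl12, Cxcl9, Ccl25 and Ackr2 cross 0, while Ccl2, Cxcr4 and Cxcl14 stay far above it.

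In whole-liver RNA, more cells of a type and more RNA per cell cannot be told apart, and markers of several cell types moved with these genes. The 9 monocyte and macrophage markers were higher in 9 of 9 cases in F/F and in W/F vehicle mice in both scalings, with a summed level of 89.4 to 226 TPM in W/W, 2915 to 4027 TPM in W/F and 3673 to 4788 TPM in F/F. Neutrophil markers summed to 4.44 to 8.93 TPM in W/W, 76.7 to 145 TPM in W/F and 142 to 428 TPM in F/F, with 5 of 6 tested higher in F/F (after rescaling 5 higher and 1 lower), and Ly6g and Mpo were listed at 0 in some groups. Kupffer cell markers went the other way in F/F, where 7 of 7 were lower in both scalings and the sum was 4.81 to 6.51 TPM, against 186 to 229.9 TPM in W/W. In W/F their sum was 295 to 427 TPM, most of it Cd5l (263 TPM on average, against 80.5 TPM in W/W), but 3 of 7 were lower (Clec4f, Timd4 and Cd163) and 1 higher, or 4 and 1 after rescaling. Clec4f, a defining Kupffer cell marker, was at 0.354 TPM in F/F, 72.3 TPM in W/W and 45.0 TPM in W/F vehicle mice on average. The 5 stellate cell markers summed to 13.0 to 24.4 TPM in W/W, 139 to 239.6 TPM in W/F and 303 to 353 TPM in F/F. They were higher in 5 of 5 cases in both mutants, and after rescaling 5 were higher in W/F, and 3 were higher and 1 lower in F/F. The 5 cholangiocyte markers were higher in 5 of 5 cases in both scalings, with sums of 54.0 to 61.4 TPM in W/W, 1163 to 1589.9 TPM in W/F and 2908 to 3554 TPM in F/F. T cell markers were low throughout, at 2.12 to 7.37 TPM in W/W and 7.31 to 11.8 TPM in F/F. Hepatocyte markers were lower in 5 of 6 cases in F/F, or 6 of 6 after rescaling. Mast cell and eosinophil markers stayed under 1 TPM in sum in every mouse, and Cpa3 was at 0 in all W/W mice. The marker lists were chosen with earlier results of these data known, and the part of these cell types in the chemokine values was not tested.

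**Figure D4:**
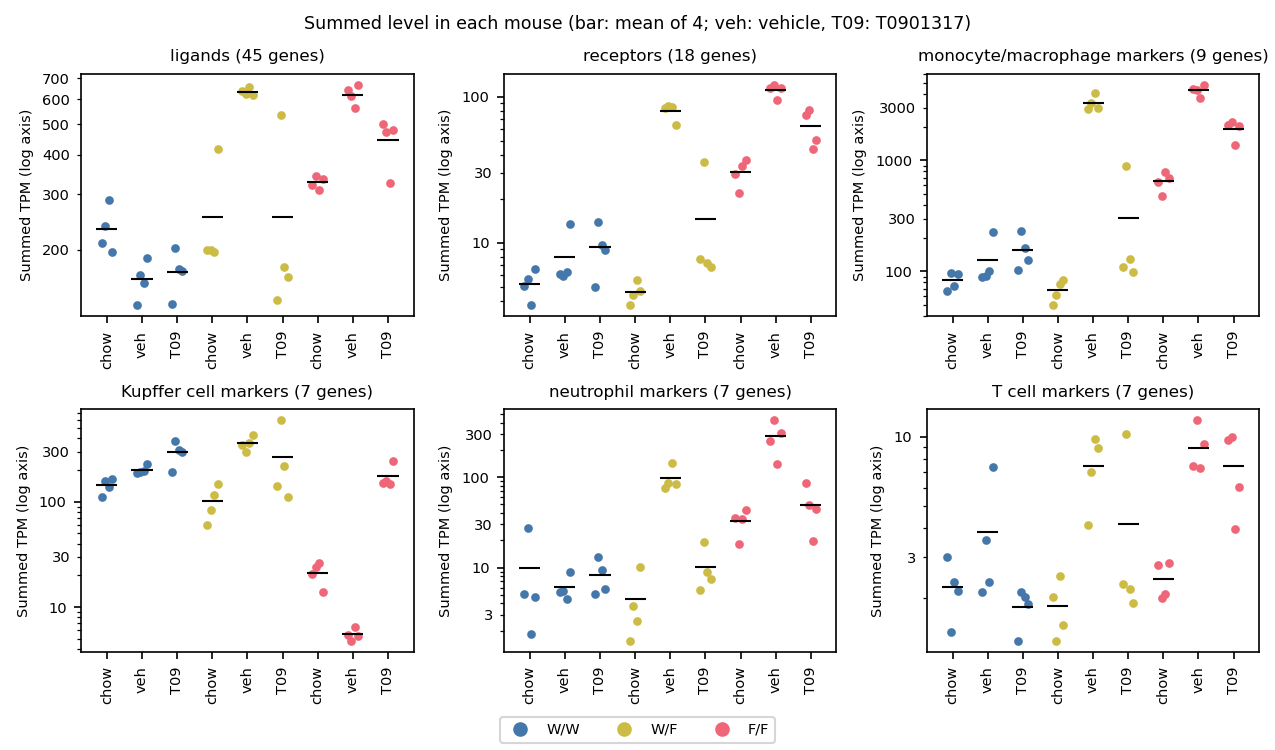
Summed TPM of the chemokine ligands, of the receptors and of 4 marker lists in each mouse (points; bars, mean of 4), on log axes, by genotype and treatment. Receptors and monocyte and macrophage markers follow the same order of groups, while Kupffer cell markers are lowest in F/F vehicle mice, at 5.52 TPM on average.

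On chow, no tested gene of the family was called between W/F and W/W livers. The count was 0 higher and 0 lower with limma in both scalings, beside 0.487% of all genes called (0.601% after rescaling), so a count of 0 among 40 is near that share, and 3 genes (Ccl9, Cxcl12 and Cxcl13) had an unadjusted p under 0.05. Cxcl12 was at 125, 121, 113 and 139.6 TPM in W/F and at 105, 99.7, 107 and 83.3 TPM in W/W, with no overlap (0.34 ± 0.15, adjusted p 0.822), and Cxcl13 was at 0.508 TPM on average in W/F and 1.77 TPM in W/W (-0.82 ± 0.23, adjusted p 0.141). Without W/W chow replicate 3 the count was 1, and with no filter it was also 1. F/F chow livers had 14 genes higher and 2 lower, beside 46.7% of all genes (43.0% higher and 3.65% lower), and 11 higher and 3 lower after rescaling, beside 15.9% and 14.0%. The rises were led by Cxcl14, at 20.9, 55.1, 21.3 and 47.1 TPM in F/F and 1.60, 4.05, 0.601 and 1.73 TPM in W/W (3.62 ± 0.34, adjusted p 2.30e-09). Cx3cr1 followed, at 9.49, 5.89, 10.6 and 13.3 TPM against 0.247, 0.468, 0.334 and 0.537 TPM (2.91 ± 0.27, adjusted p 2.18e-09). F/F chow mice thus had both genes at many times the W/W level without the MASH diet, with no overlap between mice.

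Receptors of the monocyte axes were also raised on chow in F/F. Cxcr4 was at 4.64, 4.33, 6.43 and 7.86 TPM (1.93 ± 0.30, adjusted p 8.90e-06), Ccr2 at 5.06, 3.51, 5.52 and 4.96 TPM (1.90 ± 0.32, adjusted p 2.54e-05) and Ccr1 at 2.21, 2.5, 2.83 and 2.64 TPM (1.69 ± 0.23, adjusted p 8.03e-07). All lay above the W/W chow mice. Among the ligands, Cxcl16 was at 16.1, 11.2, 15.9 and 20.7 TPM (1.64 ± 0.26, adjusted p 1.34e-05), Cx3cl1 at 2.51, 2.55, 2.84 and 3.84 TPM and Cxcl5 at 1.46, 0.919, 2.06 and 1.34 TPM. Ccl2 was at 4.84, 2.69, 10.6 and 8.86 TPM against 0.978, 1.27, 1.92 and 1.02 TPM, with a smaller margin (1.64 ± 0.56, adjusted p 0.0180), and its call ended after rescaling (1.36, adjusted p 0.0641) and without F/F chow replicate 3 (1.39, adjusted p 0.0674) or replicate 4 (1.47, adjusted p 0.0580). The 2 lower genes were Ccl24, at 0.127, 0.378, 0.449 and 0.0838 TPM (-1.06 ± 0.29, adjusted p 0.00357), and Cxcl13 (-1.18 ± 0.23, adjusted p 1.31e-04). The monocyte and macrophage markers summed to 483 to 783 TPM in F/F chow mice and 66.2 to 96.9 TPM in W/W chow mice, and Kupffer cell markers to 14.0 to 26.4 TPM and 111 to 166 TPM, so both moved on chow as well, and their part was not tested.

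The count of genes called between the MASH diet and chow differed between genotypes, in the family and over all genes tested. Diet and cohort cannot be told apart here. In W/W mice 0 of 40 genes were higher on the MASH diet than on chow and 2 were lower, beside 12.9% of all genes (2.59% higher and 10.3% lower), with 2 higher and 2 lower after rescaling, beside 6.98% and 8.44%. The 2 lower as deposited were Ccl9, which fell from 57.3, 62.5, 46.1 and 52.7 TPM on chow to 26.9, 26.7, 25.4 and 28.8 TPM (-0.99 ± 0.15, adjusted p 8.61e-05), and Cxcl12 (-0.59 ± 0.15, adjusted p 0.00867; -0.50 without W/W vehicle replicate 1, adjusted p 0.0529). In W/F mice 31 were higher and 3 lower, beside 61.0% of all genes (52.4% higher and 8.53% lower), and 26 higher and 4 lower after rescaling, beside 27.9% and 27.0%. Ccl2 rose by 4.62 ± 0.56 (adjusted p 2.94e-08), Ccl6 by 4.35 ± 0.42 (adjusted p 3.34e-10) and Cxcr4 by 4.33 ± 0.30 (adjusted p 6.13e-13). In F/F mice 26 were higher and 1 lower, beside 55.8% of all genes (46.5% higher and 9.27% lower), and 19 higher and 2 lower after rescaling, beside 25.7% and 21.3%. The rises were led by Ccl2 (3.12 ± 0.56, adjusted p 2.41e-05), Cxcr4 (2.67 ± 0.30, adjusted p 1.87e-08) and Ccl3 (2.64 ± 0.35, adjusted p 2.82e-07). Cxcl14, already high on chow in F/F, was not called there (0.66 ± 0.34, adjusted p 0.0983).

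The scavenger Ackr2 fell in W/F and F/F mice, where most called genes rose. Its mean fell in W/W mice too, from 1.79 ± 0.453 to 1.03 ± 0.262 TPM (SD, n = 4 each), without a call (-0.46 ± 0.17, adjusted p 0.0727). Its diet response differed from that of W/W in W/F (-0.60 ± 0.24, adjusted p 0.0362). For F/F no such difference was called (-0.24 ± 0.24, adjusted p 0.434). Ackr2 was at 2.38, 2.15, 1.89 and 3.35 TPM in W/F chow mice and 0.513, 0.677, 0.260 and 1.25 TPM in W/F vehicle mice (-1.05 ± 0.17, adjusted p 3.57e-06). In F/F it was at 2.68, 2.07, 2.72 and 2.81 TPM on chow and 1.38, 1.55, 0.802 and 1.12 TPM on vehicle (-0.70 ± 0.17, adjusted p 9.00e-04), and chow and vehicle mice did not overlap in either genotype. The other 2 lower genes in W/F were Cxcl12 (-0.58 ± 0.15, adjusted p 0.00122) and Ccl25 (-0.34 ± 0.12, adjusted p 0.0123; -0.28 without W/F vehicle replicate 3, adjusted p 0.0538).

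Tested as a difference between genotypes, the diet response was larger than in W/W for 23 genes and smaller for 1 in W/F, beside 54.6% of all genes, and 22 and 5 after rescaling, beside 21% and 19.1%. For F/F it was larger for 19 and smaller for 0, beside 46.0%, and 14 and 1 after rescaling, beside 14.5% and 12.3%. As deposited, the shares called were close to those of all genes in both mutants. These tests share their vehicle and chow mice with the comparisons of genotypes above. Between W/F and W/W, Ccl2 differed by 4.87 on vehicle and by 0.07 on chow. The difference for Ccl2 was 4.80 ± 0.79 in W/F (adjusted p 1.09e-05) and 3.31 ± 0.79 in F/F (adjusted p 0.00136). For Cxcr4 it was 4.14 ± 0.43 in W/F (adjusted p 9.47e-09) and 2.48 ± 0.43 in F/F (adjusted p 4.55e-05). Chow libraries of W/F had 20.6 to 21.7 M reads and vehicle libraries 23.3 to 34.4 M reads, so depth differed there along with diet and cohort.

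T0901317 left most of the family in W/W livers without a call, as it did most of all genes tested. Of 40 genes 2 were higher and 2 lower than on vehicle, beside 10.8% of all genes (7.87% higher and 2.91% lower), and 2 higher and 3 lower after rescaling, beside 8.0% and 5.52%. Ccl9 rose to 55.7, 63.9, 63.4 and 55.2 TPM, all above the vehicle mice and overlapping the chow mice (1.11 ± 0.15, adjusted p 5.53e-06). Cxcl13 fell from 1.61, 1.94, 0.963 and 3.42 TPM to 0.506, 0.188, 0.779 and 0.562 TPM (-0.94 ± 0.23, adjusted p 0.00541). Cx3cr1 rose from 0.275, 0.427, 0.335 and 1.16 TPM to 0.872, 3.99, 1.67 and 1.21 TPM (0.85 ± 0.27, adjusted p 0.0410), a call that ended without T0901317 replicate 2 (0.56, adjusted p 0.234) and without 4 other libraries. Its ligand Cx3cl1 was not called, at 0.594 ± 0.281 TPM with T0901317 (SD, n = 4). Cxcl12 fell to 37.7, 45.3, 48.9 and 53.7 TPM (-0.49 ± 0.15, adjusted p 0.0296), a call that ended without vehicle replicate 2 (-0.36, adjusted p 0.145) and without 3 other libraries. Ccl2 was at 1.28, 4.09, 2.07 and 1.62 TPM (0.64, 95% confidence interval -0.51 to 1.78, adjusted p 0.568).

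In W/F livers most of the family was lower with T0901317 than on vehicle, as were most of all genes tested as deposited. The W/F vehicle mice are the same as in the comparison with W/W on vehicle. Genes called high there thus tend to be lower in this comparison too. Of 40 genes 25 were lower and 2 higher, beside 65.9% of all genes (59.3% lower and 6.59% higher), and 21 lower and 5 higher after rescaling, beside 27.1% and 23.6%. The median fold change was -0.90 over the family and -0.49 over all genes. Ccl2 fell from 48.1 to 66.0 TPM to 0.855, 24.9, 0.951 and 0.585 TPM, where 24.9 TPM was replicate 2 (-4.07 ± 0.56, adjusted p 3.20e-07). Ccl6 fell to 6.16, 47.8, 8.56 and 4.08 TPM (-2.99 ± 0.42, adjusted p 4.34e-07) and Cxcl1 to 5.10, 47.9, 10.7 and 4.87 TPM (-3.21 ± 0.79, adjusted p 7.71e-04). Replicate 2 was the highest of its group in all 3, and the other 3 mice were at 10.7 TPM or lower. Cxcl14 fell to 2.14, 6.94, 2.97 and 2.56 TPM (-3.04 ± 0.34, adjusted p 9.86e-09) and Cxcr4 to 1.66, 8.03, 1.5 and 1.42 TPM (-3.01 ± 0.30, adjusted p 1.48e-09). Without replicate 2 the fold changes were -5.03 for Ccl2, -3.88 for Cxcl1, -3.68 for Ccl6, -3.47 for Cxcr4 and -3.33 for Cxcl14, and 31 genes were called.

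The partners of these genes fell too. Ccr2 fell to 0.406, 5.70, 0.384 and 0.478 TPM (-2.56 ± 0.32, adjusted p 6.29e-08), Ccr1 to 0.281, 1.77, 0.153 and 0.0336 TPM (-2.84 ± 0.23, adjusted p 2.68e-11) and Cxcr2 by 0.92 on the log2 scale (-0.92 ± 0.17, adjusted p 2.45e-05). Cxcl10 fell by 1.89 (-1.89 ± 0.56, adjusted p 0.00380), or by 2.99 without replicate 2, in which it was at 65.3 TPM. Cxcl12 was not called as deposited (-0.18 ± 0.15, adjusted p 0.297) and was higher after rescaling (0.42, adjusted p 0.00773). Higher were Ackr2 (0.44 ± 0.17, adjusted p 0.0253), whose call ended without T0901317 replicate 3 (0.32, adjusted p 0.121), vehicle replicate 1 (0.40, adjusted p 0.0627) or vehicle replicate 3 (0.31, adjusted p 0.128), and Cxcl11 (0.61 ± 0.23, adjusted p 0.0191), whose call ended without T0901317 replicate 2 (0.34, adjusted p 0.156) or vehicle replicate 2 (0.44, adjusted p 0.101). Without replicate 2 the folds were -3.12 for Ccr2, -3.16 for Ccr1 and -1.01 for Cxcr2. The monocyte and macrophage markers fell in 8 of 9 cases in both scalings, to sums of 98.1 to 884 TPM with the highest in replicate 2, and their part was not tested.

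In F/F livers fewer genes passed the test. Of 40 genes 16 were lower and 0 higher, beside 35.1% of all genes (31.2% lower and 3.95% higher), and 10 lower and 1 higher after rescaling, beside 7.98% and 8.32%. The count depended on T0901317 replicate 3, which lay at -34.8 on the first principal component where the other 3 lay between -72.8 and -51.7, and was 9 without it. Ccr1 fell most, from 11.8 to 17.2 TPM on vehicle to 2.96, 3.24, 0.919 and 1.33 TPM (-2.32 ± 0.23, adjusted p 1.08e-08), and Cxcl5 fell to 3.45, 5.19, 1.58 and 3.51 TPM (-1.75 ± 0.19, adjusted p 6.26e-08). Both held after rescaling (-2.0 and -1.46) and without replicate 3 (-2.11 and -1.51). Ccl4 fell to 7.52, 4.64, 3.26 and 4.60 TPM (-1.29 ± 0.32, adjusted p 0.00301) and Ccl7 to 6.01, 6.88, 1.27 and 7.70 TPM (-1.39 ± 0.38, adjusted p 0.00672; -0.94 without replicate 3, adjusted p 0.0621). Ccl2 fell to 24.3, 20.3, 11.1 and 32.8 TPM, below every vehicle mouse (-1.5 ± 0.56, adjusted p 0.0374), but its call ended after rescaling (-1.23, adjusted p 0.136), without replicate 3 (-1.22, adjusted p 0.144) and without 5 other libraries. The partner receptor Cxcr2 fell by 0.89 (-0.89 ± 0.17, adjusted p 3.30e-04). Monocyte and macrophage markers fell in 7 of 9 cases, or 3 after rescaling, to sums of 1388 to 2209 TPM. Neutrophil markers fell in 5 of 6 cases in both scalings, to sums of 19.7 to 85.3 TPM. Kupffer cell markers rose in 3 of 7 cases in both scalings, to sums of 147 to 244 TPM. The part of these cell types was not tested.

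Several genes that were high in F/F were not called under T0901317. Ccl6 was at 46.6, 33.5, 29.1 and 52.7 TPM, overlapping the vehicle mice (-0.03, 95% confidence interval -0.89 to 0.83, adjusted p 0.968). Cx3cr1 was at 31.0, 26.1, 16.3 and 13.8 TPM (-0.27, interval -0.83 to 0.29, adjusted p 0.454) and Ccl9 at 84.2, 89.8, 64.3 and 94.6 TPM (0.06, interval -0.26 to 0.38, adjusted p 0.787). These intervals still allow changes of up to 0.89 on the log2 scale. Ccr2 was at 7.13, 8.61, 4.32 and 5.01 TPM, below every vehicle mouse, without a call (-0.69 ± 0.32, adjusted p 0.0906). Cxcr4 was at 20.5, 25.7, 12.5 and 18.9 TPM and had fallen (-1.10 ± 0.30, adjusted p 0.00673).

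**Figure D5:**
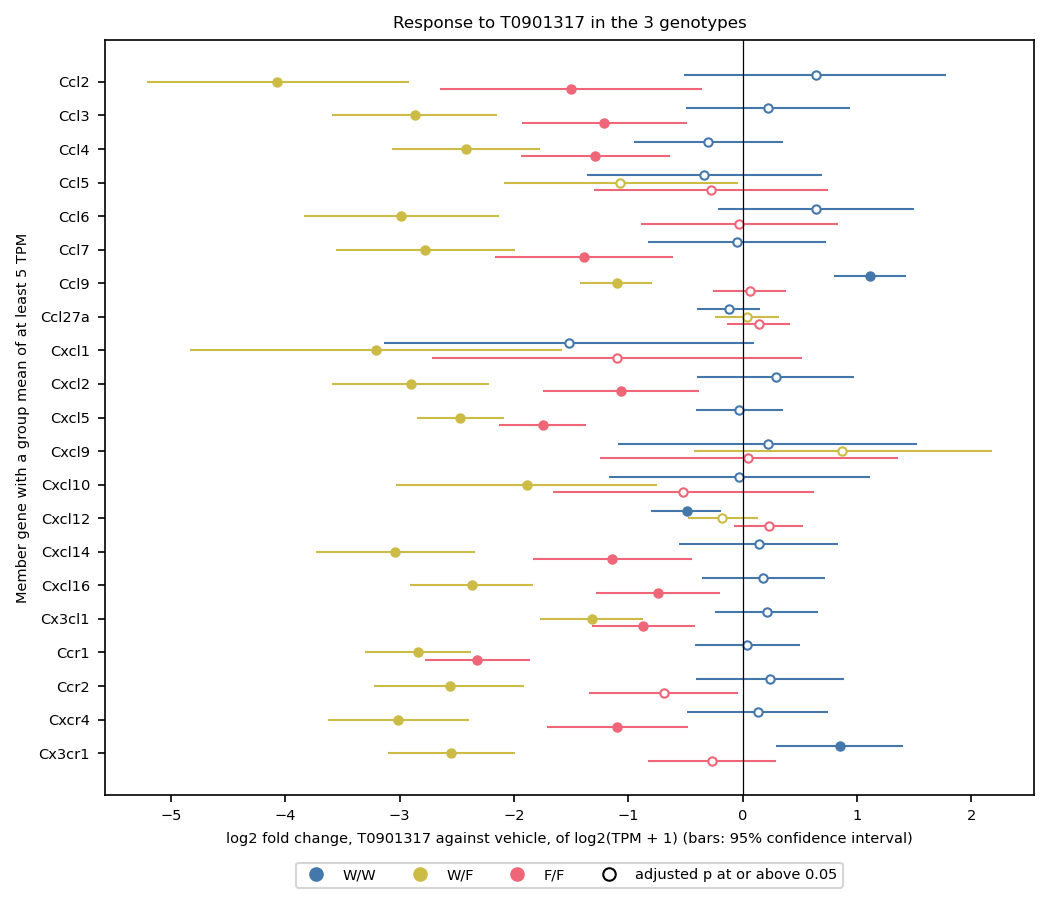
Log2 fold change of T0901317 against vehicle, with 95% confidence intervals, for 21 of the genes with a group mean of at least 5 TPM in W/W, W/F and F/F mice; open circles were not called. W/F points lie furthest to the left for most genes, F/F points lie between W/F and 0, and Ccl9 and Cx3cr1 are called higher in W/W and lower in W/F.

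Whether the genotypes responded differently was tested itself, with the same vehicle mice as in the comparisons on vehicle. Ccl2 differed between W/F and W/W by 4.87 on vehicle and by 0.17 with T0901317. At 1.08 TPM in W/W vehicle mice it had little room to fall there. For Ccl2 the test thus largely repeats the vehicle difference. Cx3cr1 and Cxcr4 were near or under 1 TPM in W/W vehicle mice as well. The response of W/F differed from that of W/W for 25 genes, 23 lower and 2 higher, beside 58.5% of all genes (53.2% lower and 5.27% higher), with 18 lower and 5 higher after rescaling, beside 24.0% and 19.9%. For Ccl2 the difference was -4.70 ± 0.79 (adjusted p 1.16e-05), for Ccl6 -3.62 ± 0.59 (adjusted p 7.87e-06) and for Cx3cr1 -3.40 ± 0.39 (adjusted p 2.87e-08). Without W/F T0901317 replicate 2 these were -5.67, -4.32 and -3.66, and 27 genes were called. The response of F/F differed from that of W/W for 14 genes, 13 lower and 1 higher, beside 30.4%, with 7 lower and 3 higher after rescaling, beside 10.0% and 7.39%, and 8 were called without F/F T0901317 replicate 3 or without W/W T0901317 replicate 2. Here Ccr1 led with -2.36 ± 0.32 (adjusted p 4.05e-06), and the gene with the opposite sign was Cxcl12 (0.72 ± 0.21, adjusted p 0.0116). Between F/F and W/F the response differed for 12 genes, 10 less negative and 2 more negative in F/F, beside 19.2%, and also 10 and 2 after rescaling, beside 7.71% and 6.73%. Without W/F T0901317 replicate 2 there were 22. The difference was 2.96 ± 0.59 for Ccl6 (adjusted p 0.00113), 2.28 ± 0.39 for Cx3cr1 (adjusted p 2.46e-04) and 1.92 ± 0.43 for Cxcr4 (adjusted p 0.00281), or 3.66, 2.55 and 2.38 without that library, while that of Ccr1 was not called (0.52, 95% confidence interval -0.13 to 1.17, adjusted p 0.249). The 2 more negative were Cxcl13 (-1.14 ± 0.32, adjusted p 0.0137) and Ackr2 (-0.68 ± 0.24, adjusted p 0.0454), and the Ackr2 call was lost in 11 of the fits that left out 1 library (-0.60 without F/F T0901317 replicate 4, adjusted p 0.0867).

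With T0901317 in all mice, few genes were called between W/F and W/W livers and many between F/F and W/W livers. The same was so over all genes tested. W/F differed from W/W for 4 genes, 2 higher and 2 lower, beside 9.88% of all genes (3.65% higher and 6.23% lower), and also 2 and 2 after rescaling, beside 5.08% and 8.28%. As deposited Cxcl12 (0.66 ± 0.15, adjusted p 0.00332) and Ccl25 (0.37 ± 0.12, adjusted p 0.0411, a call that 5 of the fits without 1 library lost) were higher, and Ccl24 (-1.14 ± 0.29, adjusted p 0.00813) and Ccl9 (-0.54 ± 0.15, adjusted p 0.0214) lower. The Ccl9 call ended without W/F T0901317 replicate 1 (-0.45, adjusted p 0.0902) or 3 (-0.45, adjusted p 0.0943) and 2 further libraries, and that of Ccl24 without W/F T0901317 replicate 4 (-0.92, adjusted p 0.0508). F/F differed from W/W for 32 genes, 31 higher and 1 lower, beside 63.2% (56.3% higher and 6.96% lower), and for 21 and 3 after rescaling, beside 24.2% and 22.7%. Cxcr4 (3.19 ± 0.30, adjusted p 7.97e-10), Cxcl14 (3.02 ± 0.34, adjusted p 1.54e-08) and Cx3cr1 (3.00 ± 0.27, adjusted p 3.75e-10) differed most, and Ccl24 was again lower (-1.53 ± 0.29, adjusted p 3.72e-05), at 0.620, 0.378, 1.40 and 0.996 TPM against 2.98, 5.60, 3.72 and 4.99 TPM. Ccl9 was higher as deposited (0.47, adjusted p 0.00995) and not after rescaling (-0.06, adjusted p 0.762). F/F exceeded W/F for 23 genes and was lower for 0, beside 62.6% of all genes, and for 16 and 3 after rescaling, beside 21.5% and 18.9%, and 28 were called without W/F T0901317 replicate 2. On vehicle the same genotypes had differed for 7 genes, 6 higher and 1 lower in F/F, beside 21.3%, and for 4 and 2 after rescaling, beside 5.74% and 4.85%.

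Genes that carry or shape chemokine signals also differed between the genotypes. Of 37 pathway genes that are not chemokines or receptors by name, 36 were tested. This list was chosen with earlier results of these data known, so its counts are descriptive. In F/F vehicle mice 35 were higher and 1 lower than in W/W, beside 76.5% of all genes, with a median of 2.01 where that of all genes was 0.70, and 31 and 2 after rescaling, beside 31.0% and 28.1%. Pf4, the platelet chemokine CXCL4, rose from 1.18 to 26.3 TPM (3.68 ± 0.20, adjusted p 1.06e-15), and Pik3r5, the regulatory subunit of the PI3-kinase that chemokine receptors activate, from 0.542 to 17.5 TPM (3.62 ± 0.26, adjusted p 3.65e-13). Vav1, an exchange factor for Rac, rose from 2.68 to 25.4 TPM (2.86 ± 0.31, adjusted p 1.37e-09), Rac2, the Rac of blood cells, from 4.02 to 30.1 TPM (2.70 ± 0.34, adjusted p 2.06e-08), and Ccrl2, an atypical receptor, from 1.16 to 11.5 TPM (2.57 ± 0.27, adjusted p 6.84e-10). Lower was Dpp4, a protease that trims chemokines (-0.29, adjusted p 0.0318, and -1.13 after rescaling). T0901317 lowered 34 of the 36 in W/F mice, beside 59.3% of all genes, and 26 in F/F mice, beside 31.2%. After rescaling it lowered 30 in W/F, beside 27.1%, and 17 in F/F, beside 7.98%, and it raised 0 in both as deposited and 1 in each after rescaling. In W/W it raised 2 and lowered 0 in both scalings, beside 7.87% of all genes higher as deposited. Many of these genes are expressed in white blood cells generally.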

How the data were processed

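PolyA RNA of 36 livers was measured, 4 mice in each of 9 groups. The authors deposited gene-level TPM values; per the submitters' processing notes the tools were Trimmomatic 0.36, STAR 2.5.2b and featureCounts of Subread 1.5.2, with build mm10, and whether counting used strand is not given in the sources used here. Groups were taken from the labels. Nothing in the labels says more of the replicates than their number, so p-values measure the spread between these samples. The 16638 genes that reached 1 TPM in 4 or more libraries were tested in limma 3.58.1 (R 4.3.3) on log2(TPM + 1) with a trended prior, 9 group means from all 36 libraries, and Benjamini-Hochberg adjustment over all genes tested at 0.05. Tables were made with pandas 2.3.3. TPM was also rescaled by the median of ratios over 14786 genes. The fit was tested on simulated data. Replicates correlated at r = 0.962 to 0.987 across genes, and no pair of libraries was identical. The alternatives were a pseudocount of 0.1, a minimum of 5 TPM, no filter, only the groups compared, a block for the replicate number, the rescaled TPM, and each library left out. Named were genes with a group mean of at least 5 TPM, the largest called changes, their receptor or ligand partners and those called against the majority. The results of 1 tested gene are not reported here beyond the counts and sums that include it. The genes and the marker and pathway lists were chosen with earlier results of these data known.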

Additional observations from a re-analysis of the deposited data

Results flagged for a closer look

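In groups of 4 mice a single mouse is marked here where its gap to the nearest other mouse divided by the group's range exceeds Dixon's 95% critical value, which chance does in about 1 in 20 groups. Over 189 groups of 4 (21 genes in 9 groups) 23 mice were marked, 8 of them W/F T0901317 replicate 2 and 5 of them W/F chow replicate 4. W/F T0901317 replicate 2 was the highest of its group for Ccl2 (24.9 TPM), Ccl7 (2.67 TPM), Ccr2 (5.70 TPM), Cxcl2 (4.27 TPM), Cxcl5 (0.40 TPM), Cxcl10 (65.3 TPM), Cxcl16 (21.4 TPM) and Cxcr4 (8.03 TPM). W/F chow replicate 4 was the highest for Ccl3 (0.304 TPM), Ccl4 (0.177 TPM), Ccl6 (6.88 TPM), Ccl9 (48.6 TPM) and Cxcl1 (187 TPM). In W/F chow mice Ccl3 had only 1 to 2 reads per library and Ccl4 only 0 to 1, so the marks for these genes carry little weight. F/F T0901317 replicate 3 was the lowest for Ccl3 (6.21 TPM) and Ccl7 (1.27 TPM). W/F vehicle replicate 1 was the lowest for Ccl5 (4.06 TPM) and Cxcl2 (8.75 TPM). F/F chow replicate 2 was the lowest for Cxcl10 (4.07 TPM), and F/F chow replicate 3 was the highest for Cxcl2 (2.02 TPM). The others were Ccl7 in W/W T0901317 replicate 2 (1.22 TPM, highest), Cxcl12 in W/F T0901317 replicate 1 (61.1 TPM, lowest), Cxcl16 in W/W vehicle replicate 4 (6.99 TPM, highest) and Cxcr4 in F/F vehicle replicate 3 (30.4 TPM, lowest).

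Responses that differed between genotypes by a test of the difference in limma are given by the largest genes of each. As above, these tests share the vehicle mice with the comparisons on vehicle. For T0901317 the response of W/F differed from that of W/W by -4.70 for Ccl2 and -3.62 for Ccl6 on the log2 scale. Between F/F and W/W it differed by -2.36 for Ccr1 and -2.14 for Ccl2, and between F/F and W/F by 2.96 for Ccl6 and 2.56 for Ccl2. The Ccl2 difference between F/F and W/F was not called without W/F T0901317 replicate 1 (2.26, adjusted p 0.0683), 3 (2.28, adjusted p 0.0534) or 4 (2.18, adjusted p 0.0570), and that between F/F and W/W was lost in 9 of the fits that left out 1 library. For diet the response of W/F differed from that of W/W by 4.80 for Ccl2 and 4.14 for Cxcr4, and between F/F and W/W by 3.31 for Ccl2 and 2.56 for Ccl3.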

How the results depend on the processing

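Of 347 gene results called, 274 kept their direction and call on rescaled TPM, 69 lost the call and 4 changed sign: Cxcl12 for W/F versus W/W on vehicle (-0.31) and F/F versus W/W on vehicle (-0.42), Ccl9 for F/F versus W/W with T0901317 (-0.06) and Cxcl12 for F/F versus W/F with T0901317 (-0.04). A pseudocount of 0.1 kept 315, no filter 314 and fitting only the groups compared 311. The count of genes called moved by over 1.5 times as follows, and the cause was not tested except that the minimum of 5 TPM leaves 22 genes to test. With a pseudocount of 0.1 it was 8 for T0901317 in F/F and 8 for the T0901317 response of F/F versus W/W. With no filter it was 2 for T0901317 in W/W, 1 for W/F versus W/W on chow and 8 for that response. With only the groups compared it was 2 for T0901317 in W/W, 1 for diet in W/W, 1 for W/F versus W/W with T0901317, while F/F versus W/F on vehicle had 11. On rescaled TPM it was 4 for diet in W/W. With 5 TPM it was 20 for diet in W/F, 16 for diet in F/F, 2 for W/F versus W/W with T0901317, 20 for F/F versus W/W on vehicle, 20 with T0901317 and, on vehicle, 3 for F/F versus W/F. Leaving out each library gave 2 to 4 for T0901317 in W/W, 24 to 31 in W/F and 9 to 16 in F/F, 1 to 2 for diet in W/W, 30 to 33 in W/F and 25 to 28 in F/F. It gave 0 to 1 for W/F versus W/W on chow (1 without W/W chow replicate 3), 25 to 29 on vehicle and 2 to 4 with T0901317, 13 to 19 for F/F versus W/W on chow, 28 to 33 on vehicle and 27 to 31 with T0901317, and 6 to 8 and 20 to 28 for F/F versus W/F on vehicle and with T0901317. For the differences of responses to T0901317 it gave 21 to 27 (W/F and W/W), 8 to 16 (F/F and W/W) and 9 to 22 (F/F and W/F), and for diet 23 to 27 (W/F and W/W) and 17 to 20 (F/F and W/W). The replicate numbers did not pair the mice (same-numbered mice correlated at -0.174 to 0.297, with no comparison over 0.1 in all 4 pairs); with the replicate block the counts were 32 for F/F versus W/W on vehicle and 11 for the T0901317 response of F/F versus W/F, beside 33 and 12, and 345 of 347 gene results kept their call. Genes near or under 1 TPM rest on few reads, and their folds are understated by the pseudocount.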

Other observations

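Ccr3, the receptor of CCL24, was below the level tested. It was at 0.804, 1.5, 1.21 and 0.729 TPM in the 4 F/F chow mice and at 0.366, 0.180, 0.496 and 0.962 TPM in the 4 W/F chow mice. In all other mice it was at 0.208 TPM or lower.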
